A study of Mus musculus with 41 samples.

Results

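Cholesterol is built from acetyl-CoA through the mevalonate pathway, in which isoprene units are made, joined into squalene, closed into lanosterol and trimmed to cholesterol. The genes of the pathway are well known to be switched on together when sterols in the membrane of the endoplasmic reticulum run low, through the sterol regulatory element-binding proteins (SREBPs) encoded by Srebf1 and Srebf2. Insig1 encodes the protein that holds the SREBPs in the endoplasmic reticulum when sterols are plentiful, and it is itself one of their targets. The 8 genes described here are Hmgcs1, Idi1, Fdps, Fdft1, Sqle, Lss and Cyp51, which encode enzymes of the pathway, and Insig1. They were listed by symbol and chosen by mRNA changes seen earlier in the MEF libraries, in which Idi1 stood among the large decreases of 2 mutants, and were followed through all conditions. They are 8 of the 22438 genes with ribosome footprint counts and of the 55385 genes with mRNA estimates.

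The question was what happens when ribosome rescue or mRNA surveillance is lost. There were 30 mouse libraries of ribosome footprints and 11 of polyadenylated mRNA. Pelo and Hbs1l act together to release ribosomes that stall on or at the end of an mRNA, and Upf2 is a factor of nonsense-mediated mRNA decay. Whole embryos at E8.5 on C57BL/6NJ were Hbs1l -/- or wild type, 3 libraries each, and each library pooled several embryos. Cerebella at P14 on C57BL/6J were Atoh-Cre; Hbs1l cKO or Atoh-Cre; Hbs1l +/+, 3 libraries each from 1 cerebellum apiece. Atoh-Cre, given in the study as Tg(Atoh1-Cre), is active in granule cell precursors. By the study's list of genotypes the mutants carried 1 conditional and 1 deleted allele of Hbs1l. The other cells of the mutant cerebellum therefore keep 1 allele of Hbs1l. Primary mouse embryonic fibroblasts (MEFs) on C57BL/6 carried CAG-Cre ER alone (controls) or with conditional alleles of Hbs1l, Pelo or Upf2, and all of them, controls included, had been given tamoxifen. By the same list, Hbs1l MEFs carried 1 conditional and 1 deleted allele, and Pelo and Upf2 MEFs carried 2 conditional alleles. The mutants are called Hbs1l-/- MEFs, Pelo-/- MEFs and libraries labelled Upf2-/- below. There were 3 footprint libraries for each mutant and 3 control libraries in each of the 3 batches, and 3 mRNA libraries for the controls, the Hbs1l-/- MEFs and the Upf2-labelled group but 2 for the Pelo-/- MEFs.

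Footprint libraries held 2634480 to 25607974 counts in coding sequences, with the embryos lowest (2634480 to 7298812), and mRNA libraries held 22713643 to 86425762 estimated counts. Levels of footprints are given as CPM, counts relative to library size, scaled by the trimmed mean of M-values (TMM CPM). The targeted gene was low in the Hbs1l and Pelo mutants: Hbs1l footprints were 4.94 ± 3.6 (SD, n = 3) against 54.4 ± 5.0 TMM CPM in embryos, 14.5 ± 1.5 against 40.8 in cerebella and 1.93 against 35.8 in MEFs, and Pelo footprints were 2.60 against 35.0. Upf2 went the other way, with 116 ± 2.9 against 54.2 ± 4.6 TMM CPM of footprints and 14.6 ± 6.0 against 4.65 ± 0.91 TPM of mRNA (TPM, transcript abundance scaled for length and depth), so every direction given for the libraries labelled Upf2-/- rests on that label; counts over the whole gene do not show which exons were removed. Transcripts annotated as targets of nonsense-mediated decay made up 2.28% to 2.48% of the TPM in the 3 mRNA libraries labelled Upf2-/-, above the 1.69% to 2.099% in the other 8, while those with a retained intron overlapped between the groups (2.01% to 2.25% against 1.84% to 2.27%). The MEF control libraries of the 3 batches that carry the same number differed by 1.11 to 1.19 in chi-square per gene, close to sampling noise, against 4.03 to 12.4 between different numbers. The 3 MEF comparisons therefore share their controls, and what holds for the controls in one holds in all. Fibroblast marker genes (10, all detected) summed to 33595 to 41831 TMM CPM in the 18 MEF footprint libraries and to 5599.6 to 14238 in the 11 mRNA libraries. These sums were not alike in all groups (below). Folds are on the log2 scale with a standard error (SE).

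The genes are scattered over 6 chromosomes, here with the GRCm38 coordinates of Gencode vM21. Idi1 at chr13:8885501-8892451 and Hmgcs1 at chr13:119690379-119708260 share chromosome 13. Sqle lies at chr15:59315077-59331192, Fdps at chr3:89093588-89101959, Fdft1 at chr14:63145150-63179578, Lss at chr10:76531588-76557138, and Cyp51 and Insig1 are both on chromosome 5, at chr5:4081145-4104746 and chr5:28071363-28078662. Fdps, Fdft1 and Cyp51 are on the minus strand and the others on the plus strand.

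Upstream sequence was at hand in RefSeq (GRCm38.p6) for 5 of the 8 genes, Hmgcs1, Idi1, Insig1, Lss and Cyp51. It is shown because these genes are known to be switched on together, and the stretches below hold letters of the motifs searched. All are on the plus strand and read 5′ to 3′; capitals mark the CCAAT box, here as its reverse complement ATTGG, and, in Hmgcs1 alone, the letters TCACNCCAC of a sterol regulatory element, while the third motif searched, the GC box, is left in lower case. Those of Hmgcs1 (chr13:119690101-119690350), Insig1 (chr5:28071162-28071362) and Lss (chr10:76531355-76531587) are the sequence before the first annotated exon, and those of Idi1 are short stretches around its motifs (chr13:8885551-8885575 and chr13:8885582-8885605), before the start in RefSeq but inside the gene as Gencode vM21 annotates it.
Hmgcs1: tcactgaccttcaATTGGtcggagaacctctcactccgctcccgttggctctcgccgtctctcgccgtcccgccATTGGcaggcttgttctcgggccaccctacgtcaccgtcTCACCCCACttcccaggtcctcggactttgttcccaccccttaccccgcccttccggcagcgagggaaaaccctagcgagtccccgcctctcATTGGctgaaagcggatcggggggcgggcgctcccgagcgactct
Insig1: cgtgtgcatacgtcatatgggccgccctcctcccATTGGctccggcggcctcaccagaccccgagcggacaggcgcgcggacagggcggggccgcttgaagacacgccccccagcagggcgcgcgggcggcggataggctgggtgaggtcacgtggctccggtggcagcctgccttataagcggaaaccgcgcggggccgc
Lss: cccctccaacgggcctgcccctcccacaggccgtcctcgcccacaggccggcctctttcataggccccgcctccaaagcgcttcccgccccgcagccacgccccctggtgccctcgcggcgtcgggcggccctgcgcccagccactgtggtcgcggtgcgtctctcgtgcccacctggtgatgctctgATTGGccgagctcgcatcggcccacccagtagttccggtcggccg
Idi1, first stretch: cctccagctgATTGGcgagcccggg
Idi1, second stretch: ccaaggtgccATTGGctggcgacc

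Over the 250 bases before the start, on both strands, TCACNCCAC was found in 1 of the 5 genes and in 1.05% of 32851 promoters, CCAAT in all 5 and in 33.8%, and the GC box GGGCGG in all 5 and in 32.7%. Of the other 16 genes of the pathway, 14 had an entry; none held TCACNCCAC, 11 held CCAAT and 12 held GGGCGG. These are matches of letters only, the 3 motifs were counted separately, and none of the files measures binding there.

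Footprints are short, and several of the genes have near-identical copies elsewhere, so each coding sequence was cut into windows of 28 bases and compared with the annotated transcripts of all other genes. Of the windows of Idi1, 73.9% (654 of 885) also occur in another gene, all 654 of them in the processed pseudogene Gm13502. The share was 93.0% for Fdps (1216 of 1307), of which 1074 lie in the overlapping gene Gm43738 and 726 in Gm3571, 52.8% for Fdft1 (645 of 1221, in Gm6781) and 14.7% for Insig1 (110 of 750, in Gm37784). Hmgcs1, Sqle, Lss and Cyp51 had none. In the main Idi1 transcript the first 195 of the 849 coding bases (23%) are covered by windows of its own and the rest only by shared ones. Where the one passes into the other, coding positions 136 to 255 read as follows, with capitals for bases in at least 1 window of Idi1's own.
Idi1 coding sequence: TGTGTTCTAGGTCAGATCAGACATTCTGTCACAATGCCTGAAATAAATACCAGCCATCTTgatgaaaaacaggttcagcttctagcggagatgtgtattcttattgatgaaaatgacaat

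Footprint levels per unit of mRNA were lowest for the genes with the most shared windows. In MEF controls, footprint density (TMM CPM per coding kilobase) divided by TPM was 6.58 for Hmgcs1, 6.55 for Cyp51, 3.58 for Sqle, 2.24 for Insig1, 1.88 for Lss and 1.33 for Fdft1, but 0.123 for Idi1 and 0.0249 for Fdps. Per kilobase of windows of their own, the values were 0.486 for Idi1, 0.358 for Fdps and 2.93 for Fdft1. Footprint values of Idi1, Fdps and in part Fdft1 are thus uncertain, since reads from a copy and from the gene cannot be told apart by sequence, and how shared reads were counted was not tested.

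mRNA levels in MEFs, from which the genes were chosen, are given as a description without tests. Idi1, which encodes the isomerase that interconverts the isoprene units, had 14.3, 21.1 and 20.4 TPM in the 3 control libraries, 7.03, 13.0 and 12.8 in Hbs1l-/- MEFs, 4.60 and 2.93 in Pelo-/- MEFs and 6.13, 6.66 and 2.80 in libraries labelled Upf2-/-. No mutant library reached the lowest control. The fitted log2 fold change was -0.74 (SE 0.21) in Hbs1l-/-, -2.47 (SE 0.22) in Pelo-/- and -1.91 (SE 0.24) in libraries labelled Upf2-/-; in Pelo-/- it was -2.05 on the log2(TPM + 1) scale and -2.83 with only the second library. Transcript Idi1-201 made up 83.7% to 100% of Idi1 TPM in all 11 libraries. The pseudogene Gm13502, with which the reads are shared in part, had 7.21 ± 3.5 TPM (SD, n = 3) in controls, 4.05 ± 0.38 in Hbs1l-/-, 0.777 (n = 2) in Pelo-/- and 1.76 ± 0.88 in libraries labelled Upf2-/-. Idi1 and its copies together had 26.0 ± 7.0, 15.0 ± 3.8, 4.54 and 7.01 ± 2.7 TPM, lower in the mutants in the same order of groups as Idi1 alone.

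Hmgcs1, HMG-CoA synthase at the start of the pathway, had 23.6, 41.0 and 37.2 TPM in controls, 16.8, 23.9 and 18.8 in Hbs1l-/-, 18.1 and 15.1 in Pelo-/- and 14.9, 15.1 and 10.1 in libraries labelled Upf2-/-. Its log2 fold change was -0.79 (SE 0.16), -1.17 (SE 0.17) and -1.35 (SE 0.15) in the 3 mutants in turn; in TPM, 1 Hbs1l-/- library lay just above the lowest control, whereas on the TMM scale none did. Control library 1 was the lowest control for each of the 8 genes.

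The 2 enzymes that lead to squalene had another order. Fdps, farnesyl diphosphate synthase, had 173, 218 and 253 TPM in controls, 260, 241 and 272 in Hbs1l-/-, 140 and 114 in Pelo-/- and 105, 133 and 121 in libraries labelled Upf2-/-. Fdft1, squalene synthase, had 32.2, 40.5 and 46.1, then 44.0, 41.4 and 41.6, then 26.7 and 22.8, then 24.6, 28.3 and 24.3 TPM. Both lay within or above the controls in Hbs1l-/-, with log2 fold changes of 0.24 (SE 0.11) and 0.07 (SE 0.10), and below every control in Pelo-/- (-0.90, SE 0.12, and -0.77, SE 0.11) and in libraries labelled Upf2-/- (-0.81, SE 0.13, and -0.67, SE 0.11). The Fdft1-202 transcript, annotated as a target of nonsense-mediated decay, had 1.17 ± 0.77 TPM in controls, 0.598 in Hbs1l-/-, 0.214 in Pelo-/- and 2.03 ± 0.40 in libraries labelled Upf2-/-, and controls and the latter overlapped.

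For the 3 enzymes that make and trim lanosterol, values differed between the mutants, which was not tested. Sqle, squalene epoxidase, had 16.1, 27.2 and 25.1 TPM in controls and 24.3 and 22.3 in Pelo-/-, a log2 fold change of -0.09 (SE 0.16), but 12.1, 15.7 and 11.2 in libraries labelled Upf2-/-, all below the controls (-0.79, SE 0.15). Cyp51, lanosterol demethylase, had 16.8, 26.8 and 27.4 TPM in controls, 22.2 and 20.4 in Pelo-/- (-0.27, SE 0.15) and 14.2, 17.9 and 12.4 in libraries labelled Upf2-/- (-0.67, SE 0.14), of which 1 lay above the lowest control in TPM. Lss, lanosterol synthase, had 9.79, 14.9 and 17.8 TPM in controls, 12.1 and 12.3 in Pelo-/- (-0.46, SE 0.13) and 9.11, 16.2 and 10.7 in libraries labelled Upf2-/- (-0.11, SE 0.14). In Hbs1l-/-, these 3 genes had log2 fold changes of 0.10 to 0.17. The TPM values of Lss in Pelo-/- lay inside the range of the controls, and its difference was -0.16 on the log2(TPM + 1) scale, beside -0.22 in libraries labelled Upf2-/-, so that the order of the 2 mutants depends on the scale. Insig1 had 13.2, 20.03 and 16.4 TPM in controls, with log2 fold changes of -0.38 (SE 0.13) in Hbs1l-/-, -0.63 (SE 0.13) in Pelo-/- and -0.32 (SE 0.15) in libraries labelled Upf2-/-.

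**Figure D1:**
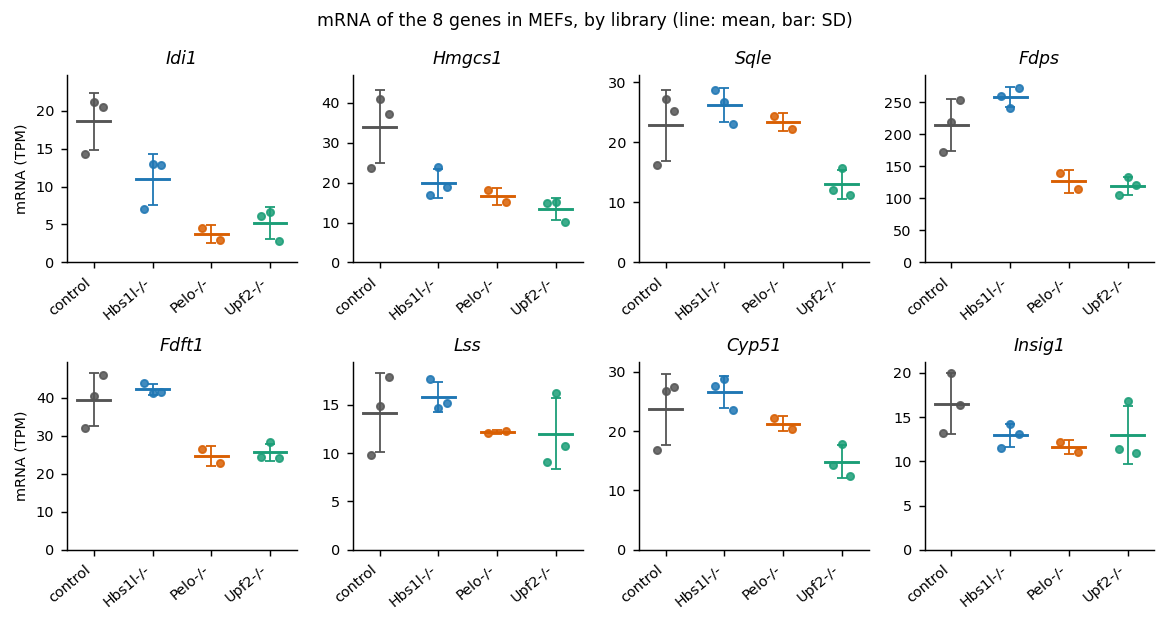
mRNA of the 8 genes in MEFs in TPM (vertical axes from 0), 1 panel per gene, with 1 point per library, the mean as a line and the SD as a bar (3 libraries per group, 2 for Pelo-/-). Idi1 lies at 14.3 to 21.1 TPM in controls and at 2.80 to 6.66 TPM in the Pelo-/- and Upf2-labelled libraries, while Lss overlaps between groups.

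The median log2 fold change of the 8 genes was 0.09 in Hbs1l-/-, -0.70 in Pelo-/- and -0.73 in libraries labelled Upf2-/-, with all genes at -0.01, -0.01 and -0.02. Since this contrast chose the genes, nothing is read from it. Marker sums moved with the groups in the mRNA libraries as well. Fibroblast markers summed to 13699 to 14238 TMM CPM in Pelo-/-, 7017 to 11698 in Hbs1l-/- and 6242 to 7691 in libraries labelled Upf2-/-, against 5599.6 to 9086 in controls. Endothelial markers (6 genes) summed to 15.9 to 18.7 in Hbs1l-/-, 33.6 to 40.6 in Pelo-/- and 20.6 to 27.8 in libraries labelled Upf2-/-, against 28.7 to 36.8. Macrophage markers (6 genes) summed to 40.5 to 65.1, 30.6 to 44.0 and 21.1 to 28.6 in the same order, against 21.9 to 32.5. Granule precursor markers (Atoh1, Gli1, Barhl1 and Mki67, the last encoding the cell-cycle protein Ki67) summed to 19.6 to 26.2 in Pelo-/- against 30.8 to 57.6. They were lower here but higher in footprints (below). Purkinje markers summed to 1.87 to 2.60 in Hbs1l-/- and 4.07 to 4.55 in Pelo-/-, against 5.36 to 6.82. In Hbs1l-/-, astrocyte and glia markers summed to 11.0 to 15.3 against 8.13 to 9.17, and granule neuron markers to 1.18 to 1.84 against 0.470 to 0.902. The part of these lists in the mRNA values was not tested.

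MEF footprints, which did not choose the genes, were tested in each batch against its own 3 controls. In Hbs1l-/- MEFs 2 of the 8 genes rose, Lss and Cyp51, and none fell, where 17.4% of 11984 genes tested were called higher and 16.7% lower. Lss had 48.0, 42.6 and 53.1 TMM CPM in controls and 59.9, 60.4 and 66.1 in Hbs1l-/-, so that every mutant library lay above every control (log2 fold change 0.38, SE 0.09, adjusted p = 0.00619, edgeR). Cyp51 had 196, 156 and 215 in controls and 232, 230 and 232 in Hbs1l-/-, again without overlap (0.29, SE 0.09, adjusted p = 0.0262, edgeR). The Cyp51 call was lost when any one of the 3 Hbs1l-/- libraries or control 1 or 2 was left out (adjusted p = 0.0563 to 0.0757), and its value was 0.17 without control 2. Without control 3, Hmgcs1 (0.24, adjusted p = 0.0384) and Sqle (0.25, adjusted p = 0.0394) were called as well, so the count was 4. The values of Idi1 (0.24, adjusted p = 0.584) and Hmgcs1 (0.12, adjusted p = 0.344), the 2 genes with the lowest mRNA values in Hbs1l-/-, were above 0 in footprints, with 95% intervals of -0.37 to 0.86 and -0.06 to 0.31.

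In Pelo-/- MEFs none of the 8 genes was called in footprints by edgeR, against 22.9% of 12486 genes called higher and 21.2% called lower. Hmgcs1 alone had an unadjusted p under 0.05 (1 of 8, against 6423 of all genes): it had 291, 239 and 315 TMM CPM in controls and 232, 215 and 264 in Pelo-/- (-0.25, SE 0.11, adjusted p = 0.0869), and the groups overlapped. Fdft1 (-0.25, adjusted p = 0.124) and Sqle (-0.20, adjusted p = 0.165) had like values. Hmgcs1, Fdft1 and Sqle were called lower with a block on the replicate number, although these numbers did not pair the libraries (below). Control 2 was the lowest control of its batch for each of the 8 genes; without it, Hmgcs1 (-0.36, adjusted p = 0.0164), Fdft1 (-0.37, adjusted p = 0.0254) and Sqle (-0.31, adjusted p = 0.031) were all called lower, and without Pelo-/- library 3, Hmgcs1 (-0.33, adjusted p = 0.0288) and Fdft1 (-0.35, adjusted p = 0.0349) were. Fdps (-0.12), Lss (0.12), Insig1 (-0.08) and Cyp51 (-0.02) lay between, with adjusted p-values of 0.342 to 0.890. Macrophage marker genes (6, all detected) summed to 168 to 256 TMM CPM in Pelo-/- against 49.4 to 65.3 in controls, and to 93.0 to 137 against 47.1 to 65.7 in Hbs1l-/-. Endothelial markers (6 genes) summed to 25.5 to 32.8 in Pelo-/- against 73.9 to 84.6, and to 38.5 to 43.6 in Hbs1l-/- against 69.5 to 83.6. Astrocyte and glia markers (5 genes) summed to 30.1 to 49.98 against 15.7 to 16.9 in Pelo-/- and to 22.8 to 29.9 against 13.8 to 16.6 in Hbs1l-/-, and adipocyte markers (4 genes) to 18.6 to 48.7 against 9.71 to 11.6 in Pelo-/-. Granule precursor markers summed to 336 to 389 against 147 to 205 in Pelo-/- and to 326 to 389 against 146 to 199 in Hbs1l-/-. Of these, Atoh1 and Barhl1 had 0 counts in every mutant library, so the mutant sums were of Gli1 and Mki67 and do not mark granule precursors. Purkinje markers, with Pcp2 at 0, summed to 1.42 to 1.90 against 3.93 to 4.98 in Pelo-/- and to 0.837 to 2.94 against 3.58 to 6.10 in Hbs1l-/-. The part of these lists in the results was not tested.

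In libraries labelled Upf2-/-, 2 of the 8 genes rose in footprints, Insig1 and Lss, and none fell, where 22.3% of 12166 genes were called higher and 21.1% lower. Insig1 had 22.5, 19.4 and 25.3 TMM CPM in controls and 37.4, 31.8 and 31.9 in the mutant, without overlap (0.59, SE 0.12, adjusted p = 0.00172). Lss had 52.1, 42.0 and 53.4 against 80.3, 74.4 and 71.8, also without overlap (0.62, SE 0.10, adjusted p = 0.000376, edgeR). Both held when any library was left out. Cyp51 (0.30, SE 0.13, adjusted p = 0.0969) was called without mutant library 3 (0.42, adjusted p = 0.0213) or control 3 (0.40, adjusted p = 0.0294), and Fdft1 (-0.29, SE 0.11, adjusted p = 0.057) without control 2 (-0.40, adjusted p = 0.00563). Hmgcs1, whose mRNA was at -1.35, was at -0.05 (95% interval -0.27 to 0.16) in footprints. Macrophage markers summed to 77.1 to 87.4 TMM CPM in these libraries against 47.3 to 64.9 in their controls. Endothelial markers summed to 53.1 to 60.7 against 69.3 to 85.9, and astrocyte and glia markers to 34.5 to 54.2 against 15.8 to 16.8. For granule precursor markers the sums were 283 to 368 against 145 to 198, with Atoh1 and Barhl1 at 0, so that these were sums of Gli1 and Mki67. Fibroblast markers were also apart, at 38830.5 to 41831 against 33742 to 36742. So were oligodendrocyte markers, at 19.3 to 23.4 against 23.8 to 25.2. The part of these lists in the footprint values was not tested.

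**Figure D2:**
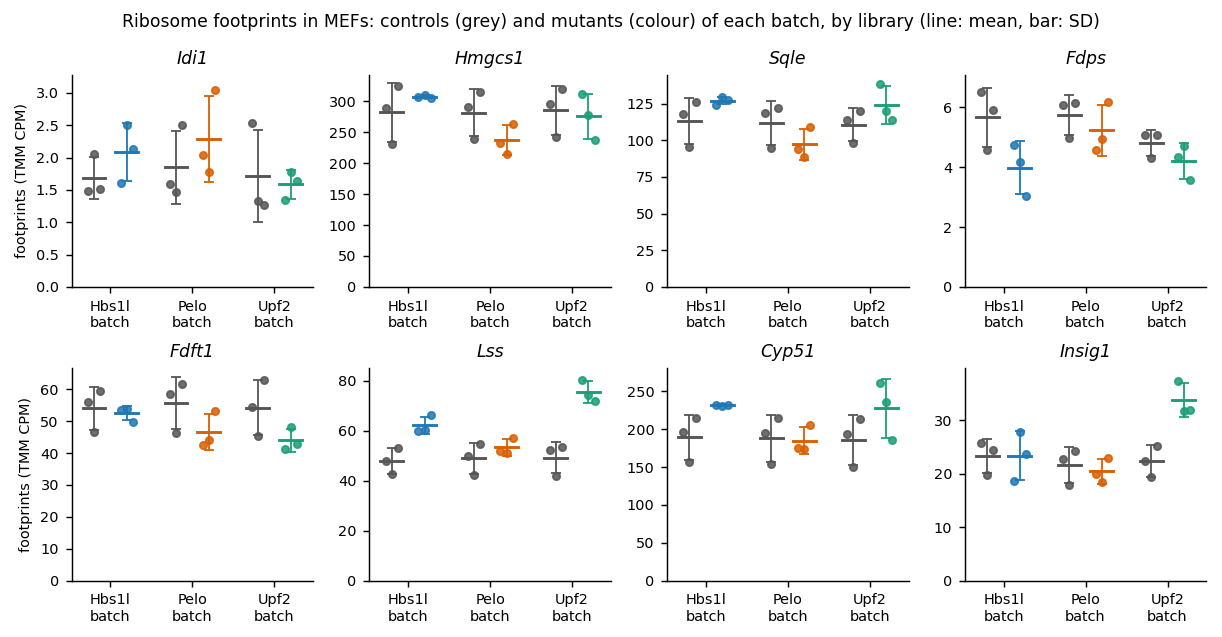
Footprints of the 8 genes in TMM CPM (vertical axes from 0) in the control libraries (grey) and mutant libraries (colour) of each MEF batch, with the mean as a line and the SD as a bar (n = 3). Lss lies at 71.8 to 80.3 in the libraries labelled Upf2-/- and at 42.0 to 53.4 in their controls, and Idi1 lies at or below 3.04 in all 18 libraries.

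Idi1 had so few footprints in MEFs that little could be resolved. It ranged from 1.27 to 3.04 TMM CPM, or 8 to 79 counts, over the 18 libraries, and the 95% interval of its fold change was -0.29 to 0.95 in Pelo-/- and -0.76 to 0.62 in libraries labelled Upf2-/-, against mRNA log2 fold changes of -2.47 and -1.91. Fdps ranged from 3.03 to 6.53. Both genes share most of their windows with copies (above).

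The difference between the footprint and the mRNA change, taken as the change of translational efficiency (TE), uses the mRNA contrast that chose the genes and is given without a test. The median over the 8 genes was 0.22 on the log2 scale in Hbs1l-/-, 0.58 in Pelo-/- and 0.92 in libraries labelled Upf2-/-, beside -0.02, 0.05 and -0.03 over all genes. Idi1 had TE values of 0.98 (SE 0.42), 2.83 (SE 0.37) and 1.83 (SE 0.49), Hmgcs1 0.93 (SE 0.21), 0.92 (SE 0.21) and 1.29 (SE 0.20), and Fdps -0.72 (SE 0.23), 0.80 (SE 0.20) and 0.62 (SE 0.22). Sqle was at 0.01 and -0.10 in Hbs1l-/- and Pelo-/- and at 0.93 (SE 0.19) in libraries labelled Upf2-/-, where Cyp51 was at 0.95 (SE 0.21). The mRNA libraries are a batch of their own, apart from the footprints.

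**Figure D3:**
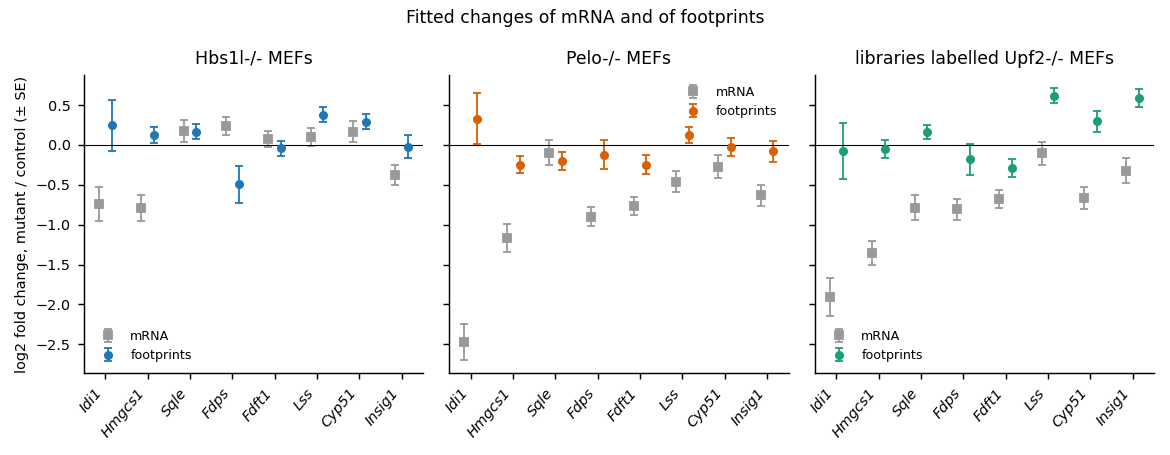
Fitted log2 fold changes, mutant over control, of mRNA and of footprints for the 8 genes in each MEF mutant, with the SE as bars. Idi1 and Hmgcs1 lie lowest in mRNA, at -2.47 and -1.17 in Pelo-/-, while their footprint values are 0.33 and -0.25.

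Differences between mutants were tested in fits over 2 comparisons at a time. These fits count 6 control libraries, although the controls of the 2 batches repeat each other (above). Their p-values and the losses given for single libraries thus rest on more libraries than there were distinct ones. Values with the repeated controls counted once (3 libraries) stand beside them. In that fit the controls cancel, so the mutant libraries of 2 batches are compared directly and batch is not removed. The Pelo-/- effect on footprints was lower than that in libraries labelled Upf2-/- for Insig1 (difference -0.66, SE 0.19, adjusted p = 0.0313, edgeR) and Lss (-0.49, SE 0.15, adjusted p = 0.042, edgeR), 2 of 8 genes where 13.1% of all genes were called in either direction. The Insig1 call was lost when Pelo-/- library 1 or 2, Upf2-labelled library 1, or any of 4 of the 6 control libraries was left out (adjusted p = 0.0616 to 0.0753), and the Lss call when Pelo-/- library 1 or 2, any Upf2-labelled library or those controls were (adjusted p = 0.0548 to 0.0959). With the repeated controls counted once, both were called (-0.71, adjusted p = 0.0014, and -0.50, adjusted p = 0.00214), and so was Sqle (-0.34, adjusted p = 0.0335). None of the 8 genes was called between Pelo-/- and Hbs1l-/- by edgeR, where 5.52% of all genes were and where Hmgcs1 (-0.37) and Sqle (-0.36) had an unadjusted p under 0.05 and became calls with the controls counted once (adjusted p = 0.0242 and 0.0169). None was called between libraries labelled Upf2-/- and Hbs1l-/- MEFs by edgeR, where 4.99% of all genes were; Insig1 had the lowest p (0.61, SE 0.20, unadjusted p = 0.00853, adjusted p = 0.0966), and with the controls counted once it (0.56, adjusted p = 0.0182) and Lss (0.29, adjusted p = 0.0497) were called.

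In E8.5 embryos, 6 of the 8 genes could be tested without regard to their own change, and none of them was called in Hbs1l-/- by edgeR or had an unadjusted p under 0.05, against 0.920% of 11416 genes called higher and 0.955% called lower and 2121 genes by unadjusted p. Idi1 passed the filter on low counts through the 3 wild-type libraries alone, so that it was bound to be lower in the mutant, and is described without a test. It had 7.87, 5.81 and 7.06 TMM CPM (20, 23 and 20 counts) in wild type and 2.54, 0.502 and 1.08 (18, 2 and 3 counts) in Hbs1l-/-, without overlap, a log2 fold change of -2.14 (SE 0.54). The value was -3.13 without Hbs1l-/- library 1, the deepest of the 6. That library also set how much was called over all genes, which rose from 214 of 11416 to 2309 of 11376 without it. For the 6 genes tested adjusted p-values were 0.41 to 0.978; Cyp51 had the highest value (0.29, SE 0.19) and Insig1 the lowest (-0.33, SE 0.32). Fdps had 1 to 13 counts in the 6 libraries and did not pass the filter. Summed erythroid markers were at 3164 to 8656 TMM CPM in Hbs1l-/- against 12998 to 16951 in wild type, trophoblast markers at 129 to 594 against 31.1 to 50.8, endothelial markers at 533 to 701 against 461 to 485 and oligodendrocyte markers, with Mog at 0, at 16.2 to 20.9 against 23.6 to 31.1; their part in the Idi1 values was not tested, and fewer cells of a type cannot be told from less RNA in each.

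In the P14 cerebellum, none of the 8 genes was called by edgeR, against 0.0554% of 14430 genes called higher and 0.00693% called lower, and none had an unadjusted p under 0.05, as 1936 of all genes did. Idi1 had 11.3, 19.3 and 8.13 TMM CPM in controls and 9.29, 8.56 and 10.5 in Hbs1l cKO (-0.45, SE 0.29, 95% interval -1.03 to 0.13, adjusted p = 0.557), with control 2 above all the others. Hmgcs1 had 917, 930 and 617 against 906, 651 and 768 (-0.08, 95% interval -0.47 to 0.31). Cyp51, Sqle and Fdft1 had values of 0.15, 0.09 and 0.23. Granule precursor markers (4 genes) summed to 123 to 167 TMM CPM in Hbs1l cKO against 65.0 to 70.9 in controls, Purkinje markers (3) to 3403 to 3904 against 4736 to 6890.1, oligodendrocyte markers (6) to 7884 to 10091 against 10520.0 to 12044, and macrophage markers (6) to 131 to 141 against 102 to 119. Their part in these values was not tested.

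The effect of Hbs1l loss on Idi1 footprints differed between embryos and MEFs by -2.39 (SE 0.62, adjusted p = 0.0273, edgeR), 1 of 8 genes where 7.50% of all genes were called. In this fit it passed the filter in 8 of the 12 libraries, among them all 3 Hbs1l-/- MEF libraries but 1 of the 3 Hbs1l-/- embryo libraries. This difference, like that between embryos and cerebella, takes in the low embryo counts of Idi1 that are described above without a test. The call was lost without embryo wild-type library 1 or 3, Hbs1l-/- MEF library 2 or 3, or any of the 3 MEF controls (adjusted p = 0.0518 to 0.0732). Between embryos and cerebella the difference for Idi1 was -1.67 (SE 0.60, unadjusted p = 0.0134, adjusted p = 0.19, edgeR). None of the 8 genes was called there by edgeR, where 0.766% of all genes (and 2316 by unadjusted p) were, but without Hbs1l-/- embryo library 1 Idi1 was (-2.72, adjusted p = 0.0318), in a fit where 1222 of all 15027 genes were called. Tissue, strain, sequencing batch and the way Hbs1l was deleted (in the whole embryo, by Atoh-Cre or by tamoxifen) cannot be told apart in these comparisons.

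**Figure D4:**
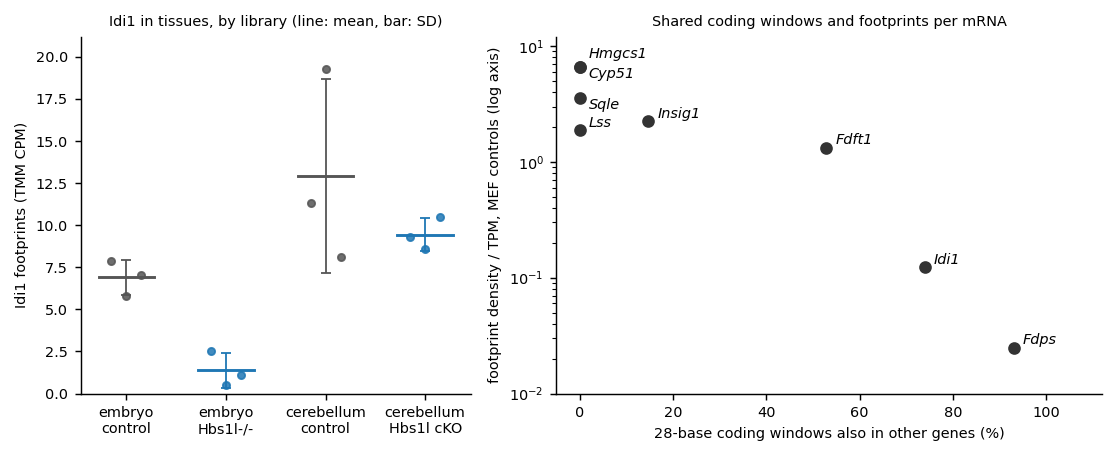
Left, Idi1 footprints in TMM CPM (axis from 0) in embryos and cerebella, 1 point per library with the mean as a line and the SD as a bar (n = 3): the Hbs1l-/- embryos lie at 0.502 to 2.54 and the wild type at 5.81 to 7.87, and the cerebella overlap. Right, the share of 28-base coding windows found in other genes (horizontal, %) against footprint density over TPM in MEF controls (vertical, log axis), 1 point per gene: Idi1 (73.9%) and Fdps (93.0%) lie lowest.

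The control libraries also give the level of footprints in each source, where source, strain, batch and the range of fragment lengths purified (narrower for cerebella than for embryos and MEFs) cannot be told apart. Per coding kilobase, footprint density was 130 in embryos, 478 in cerebella and 223 in MEFs for Hmgcs1, the highest of the 8 in each, followed by Cyp51 (57.4, 189 and 155) and Sqle (37.1, 104 and 81.6). Fdft1 (36.2, 53.3 and 52.5), Insig1 (19.99, 101 and 37.1) and Lss (21.0, 21.5 and 26.6) were in the middle, and Idi1 (6.48, 12.8 and 2.29) and Fdps (1.32, 2.203 and 5.35), with their copies, were lowest. Between cerebellum and embryo, 6 of 7 genes were higher in the cerebellum, where 44.0% of 13992 genes were called higher and 36.1% lower: Insig1 by 2.35 (SE 0.15), Hmgcs1 by 1.89 (SE 0.18), Cyp51 by 1.73 (SE 0.13), Sqle by 1.499 (SE 0.13), Idi1 by 1.01 (SE 0.36) and Fdft1 by 0.57 (SE 0.13), with adjusted p-values in edgeR of 1.4e-07 to 0.0236. The median of all genes was at 0.21 in this comparison. Lss did not differ beyond its spread (0.04, 95% interval -0.33 to 0.42), and Fdps, which passed the filter through the cerebella alone, was at 0.77 (SE 0.54) and is not counted. The call of Idi1 was lost without cerebellum library 2 (0.61, adjusted p = 0.11), embryo library 2 (0.91, adjusted p = 0.088) or embryo library 3 (1.04, adjusted p = 0.0594).

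Between MEFs and embryos, 6 of 7 genes were higher in MEFs, where 38.6% of 12616 genes were, and Idi1 was lower, as 39.0% were. Fdps (2.04, SE 0.42) passed the filter through the MEFs alone and is not counted. Cyp51 (1.42, SE 0.12) and Sqle (1.12, SE 0.12) were ahead of Insig1 (0.88, SE 0.16), Hmgcs1 (0.76, SE 0.11) and Fdft1 (0.53, SE 0.13). Lss (0.33, SE 0.14, adjusted p = 0.0346, edgeR) overlapped between the groups and lost its call with DESeq2 (0.32, adjusted p = 0.0594), without embryo library 2 (0.22, adjusted p = 0.176) or 3, or without MEF control 1 or 3. Idi1 had 6.69, 5.10 and 5.98 TMM CPM in embryos and 1.81, 2.59 and 1.87 in MEFs (-1.49, SE 0.32, adjusted p = 0.000351, edgeR), on 17 to 27 counts in each library.

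**Figure D5:**
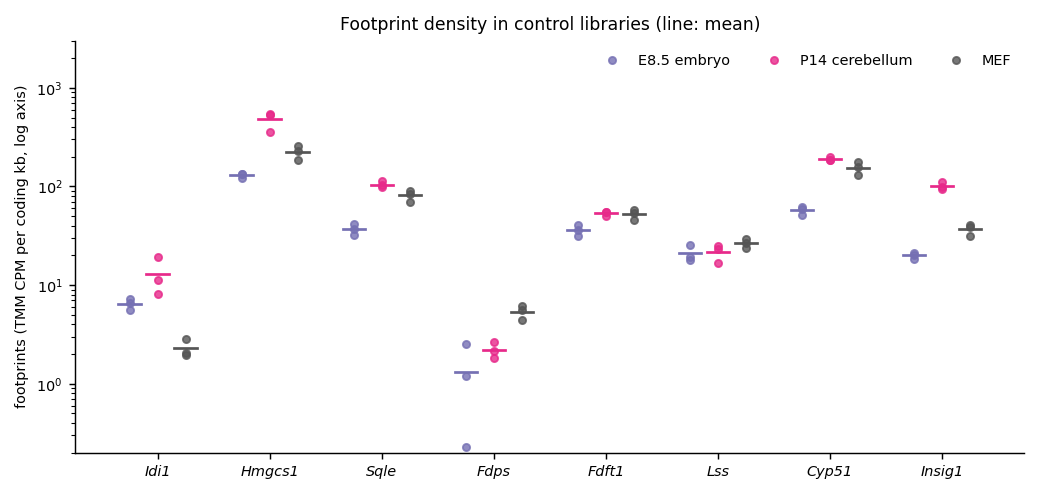
Footprint density (TMM CPM per coding kilobase, log axis) of the 8 genes in the control libraries of embryo, cerebellum and MEF, 1 point per library with the mean as a line (n = 3). Hmgcs1 is highest in each source, at 130 in embryos and 478 in cerebella, and Insig1 has the widest gap between cerebellum and embryo.

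The genes did not all vary together among the MEF libraries. Levels were taken on the log2 scale minus the mean of the controls of the same batch, so that differences between mutants and controls stay in. Over the 18 footprint libraries, of which the 9 controls repeat 3 libraries, the Pearson correlation of these values was 0.90 between Sqle and Cyp51, 0.89 between Hmgcs1 and Sqle and 0.84 between Lss and Cyp51. Hmgcs1 was at 0.74 with Fdft1 but at 0.38 with Lss and 0.36 with Insig1, and Fdps and Lss were at -0.28. Each gene's correlation with the mean of the 8 was 0.89 for Cyp51, 0.89 for Sqle, 0.80 for Hmgcs1, 0.72 for Insig1, 0.70 for Lss, 0.52 for Fdft1, 0.35 for Idi1 and 0.27 for Fdps; the mean holds the gene itself, and the 3 genes with over 50% shared windows come last. Of the 8383 genes with a mean of at least 10 TMM CPM, those most like that mean included 4930503L19Rik (0.87), Zfp68 and Nrbp1 (0.84 each) and Mpp6 (0.83). These points share control libraries and batches, and no test was made of them.

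The other enzymes of the pathway were read beside the 8 genes, 15 of 16 being tested since Idi2, the second isomerase, had 0 footprints in all 30 libraries. None was called in embryos or cerebella. In Hbs1l-/- MEFs 2 rose and 2 fell, in Pelo-/- MEFs 1 rose and 4 fell, and in libraries labelled Upf2-/- 3 rose and 4 fell. In Pelo-/- those that fell included Hsd17b7 (-0.61) and Msmo1 (-0.56), both enzymes of the route to cholesterol, and Lbr, a sterol reductase of the nuclear envelope, rose (0.60). Lbr also rose in Hbs1l-/- (0.76) and in libraries labelled Upf2-/- (0.64). Tm7sf2, the other enzyme with the activity of Lbr, fell in libraries labelled Upf2-/- (-1.05), where Mvd (0.48) and Pmvk (0.43) of the mevalonate steps rose. For footprints the shares of all genes were 17.4% higher and 16.7% lower in Hbs1l-/-, 22.9% and 21.2% in Pelo-/-, and 22.3% and 21.1% in libraries labelled Upf2-/-. The mRNA of these 15 genes was called higher for 2 and lower for 1 in Hbs1l-/-, and lower for 7 in Pelo-/- and for 8 in libraries labelled Upf2-/- with none higher, where 10.4%, 16.6% and 6.76% of all genes were called lower and 12.7%, 15.5% and 13.2% higher.

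Counts for the lists that follow stand beside the same shares of all genes and leave out genes that passed the filter on low counts through 1 group alone. Of the genes of sterol sensing and SREBP control, a list that also holds the promoter factors Nfya, Nfyb, Nfyc and Sp1, which do not sense sterols, 6 of 16 rose and 3 fell in footprints of Hbs1l-/- MEFs, 3 of 16 rose and 3 fell in Pelo-/-, and 5 of 16 rose and 3 fell in libraries labelled Upf2-/-. Srebf1 (0.36) and Srebf2 (0.26) rose in Hbs1l-/-, and Srebf1 rose in Pelo-/- (0.34) and in libraries labelled Upf2-/- (0.21). In these 3 groups in turn, Erlin1 rose (0.49, 0.74 and 0.79) and Rnf145 fell (-0.55, -0.50 and -0.87). Erlin2 fell in Pelo-/- (-0.37) and Insig2 in libraries labelled Upf2-/- (-0.41). The promoter factors among those that rose were Nfyb (0.39), Sp1 (0.33) and Nfya (0.27) in Hbs1l-/-, Sp1 (0.26) in Pelo-/-, and Nfya (0.47) and Sp1 (0.33) in libraries labelled Upf2-/-. Nr1h3, a sterol-activated nuclear receptor that macrophages express strongly, was at 1.44 ± 0.32 TMM CPM in Pelo-/- and 0.369 ± 0.17 in controls ; it passed the filter on low counts through the Pelo-/- libraries alone and is not counted among those that rose. Among uptake and transport genes 2 rose and 4 fell of 13 in Hbs1l-/-, 0 rose and 2 fell in Pelo-/- and 3 rose and 5 fell in libraries labelled Upf2-/-. Of the efflux and storage genes, 4 of 6 rose in Pelo-/- and none fell: Ch25h (2.04), Apoe (1.53), Abcg1 (1.22) and Abca1 (0.69), genes that macrophages express as well, and macrophage markers were higher in the same libraries (above), whose part was not tested. None of 6 was called in Hbs1l-/-. In libraries labelled Upf2-/-, 3 of 6 rose, Apoe (0.99), Abca1 (0.65) and Mylip (0.43), and 2 fell, among them Abcg1 (-0.68). That count leaves out Cyp27a1, which passed the filter through the controls alone. In embryos Soat1, which esterifies cholesterol, rose by 0.80 (adjusted p = 0.02, edgeR), 1 of 7 in its list, where 0.920% of all genes were called higher. Fatty acid targets of the SREBPs and the genes of the isoprenoid branches were called in both directions in every MEF mutant: 4 up and 2 down of 13, 2 and 3 of 13, and 3 and 2 of 13 for the first, and 2 and 1, 2 and 5, and 4 and 2 of 13 for the second, in Hbs1l-/-, Pelo-/- and libraries labelled Upf2-/- in turn.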

How the data were processed

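The authors deposited footprint counts per gene and mRNA estimates per transcript. For footprints, adapters were clipped, reads of ribosomal and other small RNAs were removed with Bowtie2 2.2.3, the rest was aligned to mm10 with HISAT2 2.1.0, and featureCounts gave the deposited counts over coding sequences. For mRNA, kallisto 0.42.4 gave the estimated counts and the TPM values that the authors deposited per transcript, which were summed per gene here; estimated counts were rounded. Histone genes were left out of footprint tests, as in the study.

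Each comparison was fitted with edgeR 4.0.16 (TMM, filterByExpr, quasi-likelihood test, Benjamini-Hochberg adjusted p of at most 0.05, R 4.3.3); DESeq2 1.42.0 was an alternative. Intervals are 95%, from the SE. Differences of effects and TE were interaction terms. Libraries of a MEF genotype are separate cultures from single embryos by the study's methods. Intervals cover the spread between these libraries only. The scripts were tested on simulated data. A gene that passed the filter in 1 group alone is left out of the counts given for its list. The members and all gene lists were chosen with earlier results of these data known; other genes are named where they are Srebf1 or Srebf2, or among at most 5 called per list and comparison by size of change, and further names were picked after their values were seen. Motif and window searches used exact letters in Gencode vM21 transcripts and RefSeq promoters; copies not annotated there are not covered. Some genes that this rule names are not reported here.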

Additional observations from a re-analysis of the deposited data

Results flagged for a closer look

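The results below stood out because the effect of 1 mutation differed from that of another, or between sources, by a test of the difference. On the log2 scale, the Pelo-/- effect on footprints minus that in libraries labelled Upf2-/- was -0.66 for Insig1 and -0.49 for Lss. For Idi1 the Hbs1l-/- effect in embryos minus that in MEFs was -2.39; Idi1 had 18, 2 and 3 counts in the mutant embryos, it was the 1 gene of the 8 that passed the filter in embryos through the wild type alone, and 73.9% of its coding windows also occur in other genes. Each of these calls was lost when one of several single libraries was left out. The differences between MEF mutants were called in the same direction with the repeated controls counted once. That fit compares mutant libraries of different batches directly, so nothing is read from it about the difference of effects.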

How the results depend on the processing

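The replicate numbers did not pair the libraries, since in no comparison was the correlation of their deviations over 0.1 for every same-numbered pair. In embryos all 3 were positive (0.012, 0.0125 and 0.0352), but mutant library 1 correlated best with control 2 (0.0139). The replicate block gave 1 call among the 8 genes in Hbs1l-/- embryo footprints (Idi1) and 3 in Pelo-/- MEF footprints (Hmgcs1, adjusted p = 0.00695, Sqle, 0.0345, and Fdft1, 0.0425, edgeR), where the main analysis gave 0 in both. DESeq2 and leaving out the filter on low counts also gave 1 in embryos, again Idi1. Nothing is read from the Idi1 calls, since the test of Idi1 in embryos is not used. The 3 block calls in Pelo-/- MEFs are not read either, since the replicate numbers did not pair the libraries. Leaving out single libraries gave 0 to 1 calls in embryos, 1 to 4 in Hbs1l-/- MEFs, 0 to 3 in Pelo-/- MEFs, 0 to 2 for Pelo-/- against Upf2-labelled effects, and 0 to 1 for the embryo effect against the cerebellum and against MEFs. An alternative chosen after seeing the data kept the 5 genes with under 50% shared windows, without Idi1, Fdps and Fdft1: it gave 5 calls for MEF against embryo controls, where 8 were called with Fdps, and 0 for the embryo effect against MEFs, where Idi1 was the 1 call, both of which follow from the genes removed. Another, counting the repeated MEF controls once, gave 2 calls each for the Pelo-/- and the Upf2-labelled effect against Hbs1l-/-, where there were 0. In that fit the controls cancel, so mutant libraries of different batches are compared directly and batch is not removed. Over all genes the calls went from 691 to 2304, from 615 to 2037 and from 1660 to 3691 in the 3 MEF differences with that fit. The 214 calls over all genes in embryos became 432 with DESeq2, 703 without the filter and 564 with the block, and the 9 in cerebella became 484, 16 and 0. Leaving out single libraries moved them further, to 28 (without wild-type library 2) to 2309 (without Hbs1l-/- library 1) in embryos and to 0 to 560 (without control 3) in cerebella, so the shares of all genes given for these 2 comparisons are uncertain. Fdft1 was called in Upf2-labelled footprints without the filter (-0.30, adjusted p = 0.0358) and with the controls of all batches summed by number, so that n stayed at 3 (-0.30, adjusted p = 0.0438, edgeR). No result changed direction among those called. At 8 to 79 counts in MEFs, depth limits what could be seen of Idi1.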
